A study of Mus musculus with 24 samples.

Results

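The transcript response of quadriceps muscle to the Lama2-CMD genotype, as labelled, was compared between a pair of genetic backgrounds. The question, gene by gene, was whether the response in D2 mice differed from the response in 67 mice. The comparison used 12 of the 24 libraries of the series, chosen by strain and genotype labels alone, 3 in each of 4 groups. The groups were WT and Lama2-CMD mice of strain DBA/2J, called D2, and WT and Lama2-CMD mice of the strain labelled CMD-67, which the titles shorten to 67 and the series design calls BXD-67. The other 12 libraries, of B6 and 87 mice, entered the fit to estimate the spread and the sex term. All 12 samples were left quadriceps, taken and snap frozen at an age of 25 weeks. The labels give neither the Lama2 allele nor any treatment. The quantity reported is the difference of differences on the log2 scale, the CMD effect in D2 minus the CMD effect in 67. A positive value means that the transcript responded more upwards, or less downwards, in D2.

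Laminin-211 is the main laminin of the muscle basement membrane, and its alpha 2 chain is encoded by Lama2. Loss of the chain breaks the link between the matrix and the membrane complexes of the fibre and causes a congenital muscular dystrophy with fibre loss, regeneration and fibrosis. BXD strains are recombinant inbred lines bred from C57BL/6J and DBA/2J, so a BXD line carries DBA/2J alleles at some loci and C57BL/6J alleles at the others. Adult quadriceps of the mouse is dominated by fast fibres, and slow and oxidative fibres differ from them in contractile isoforms, in mitochondrial content and in the transcriptional coactivators and nuclear receptors that drive mitochondrial genes.

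The 12 libraries held 35991630 to 51568531 exon reads over genes and 15477 to 16405 detected genes. Levels are given as CPM, the read count of a gene relative to the TMM-adjusted library size. The fast fibre genes that mark this muscle summed to 100900 to 237600 CPM in every library. Replicates of a group correlated across genes with Pearson r of 0.973 to 0.98 in 67 WT, 0.976 to 0.979 in 67 CMD, 0.982 to 0.985 in D2 WT and 0.962 to 0.968 in D2 CMD. Reads of 4 Y-linked genes went against the sex label in 4 D2 libraries. WT libraries 19 and 21, labelled male, held 1 and 0 such reads, and CMD libraries 22 and 24, labelled female, held 4927 and 4858. By these reads 1 of 3 libraries was male in 67 WT (library 7), 0 of 3 in 67 CMD, 0 of 3 in D2 WT and 2 of 3 in D2 CMD (libraries 22 and 24). In D2 the sexes that the labels give to WT (2 males, 1 female) and CMD (3 females) are those that the reads give to CMD and WT, so the reads match the sex labels of D2 with WT and CMD exchanged. The genotype labels of D2 are therefore in doubt along with the sex labels, the D2 groups are named here as labelled, and with an exchange every D2 effect would have the opposite sign. Sex as shown by the reads was a term of the model, and effects are adjusted for it. They can differ from what the raw CPM of the groups give, since in D2 the CMD group had 1 female library (library 23) and the WT group none but females.

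CMD muscle responded broadly in both strains, and 76 genes differed in that response. Of 14789 genes tested with edgeR's quasi-likelihood test, 27 (0.183%) had a CMD effect higher in D2 than in 67 and 49 (0.331%) a lower one at an adjusted p under 0.05, together 76 genes (0.514%), and 1817 had an unadjusted p under 0.05. In 67, 1838 genes (12.4%) were raised and 1534 (10.4%) lowered in CMD. In D2, 1391 (9.41%) were raised and 1091 (7.38%) lowered. The strains had 710 raised genes in common, 38.6% of those of 67 and 51% of those of D2, and 487 lowered genes, 31.7% and 44.6%. A further 23 genes were raised in 67 and lowered in D2 and 3 were lowered in 67 and raised in D2, and 19 of these 26 were among the 76. The effects correlated across genes with a Pearson r of 0.522 and a Spearman rho of 0.542, with genes that are not independent replicates and arms that share the sex term. The median absolute log2 effect was 0.388 in 67 and 0.387 in D2, and the median difference over all tested genes was 0.03.

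The count of 76 depended on single libraries. Leaving out 1 library gave 20 genes (without library 7), 4 (8), 4 (9), 25 (10), 18 (11), 5 (12), 18 (19), 51 (20), 10 (21), 246 (22), 16 (23) and 40 (24). All 76 genes kept the sign of their difference in each of these 12 fits, 15 were called in 6 or more of them, and 1, Fggy, was called in all 12. The 76 were selected by a large difference in the full data, most of which each fit shares. Their kept signs were largely set by that selection and are no separate test of direction. With no sex term 189 genes were called and with sex as labelled 445, and 62 of the 76 were called under both. The count in 67 fell to 1933 without library 9. The count in D2 was 681 without library 23, 1142 without library 20, 1457 without library 21, 1579 without library 24 and 3754 with sex as labelled. The p-values rest on a spread pooled over all 24 libraries of the series, those of the other strains included. They do not measure the spread of the 12 compared libraries alone. With only those 12 libraries in the fit 15 genes were called, 10 of them among the 76. Every arm had 3 libraries, and the labels do not tie the samples to litters, cages or preparation days.

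**Figure D1:**
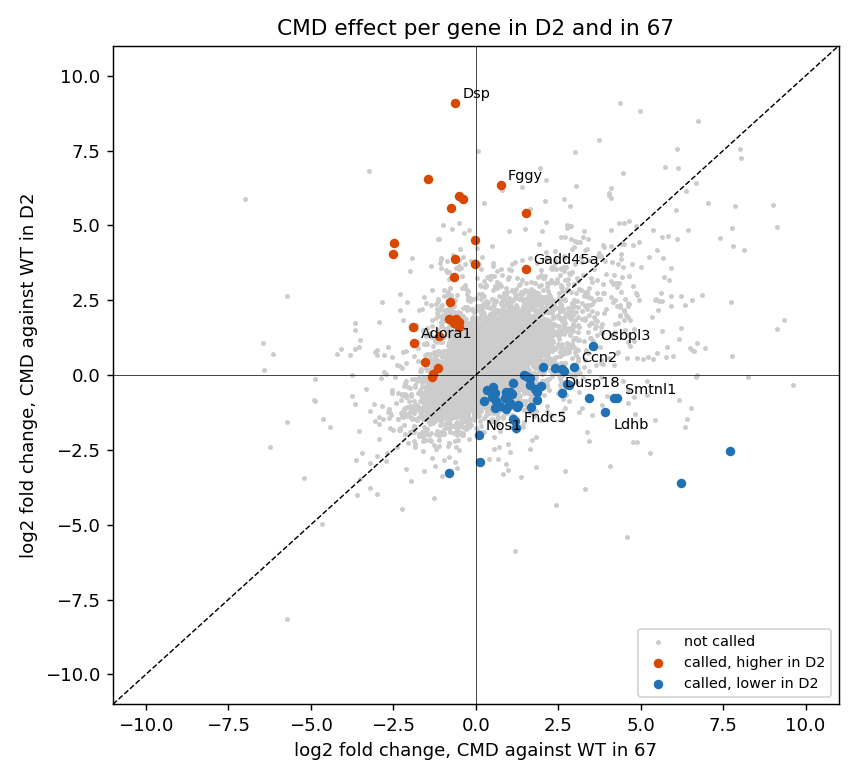
Log2 CMD effect of each tested gene in D2 (vertical axis) against 67 (horizontal axis), with the 76 genes whose difference was called in colour (27 higher in D2 in orange, 49 lower in D2 in blue) and the dashed line where both effects are equal. Most blue points lie at the lower right, above 0 in 67 and below 0 in D2, and most orange points at the upper left.

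The mutated gene gave no check of the labels by its level. Lama2 (ENSMUSG00000019899) was at 28.4, 28 and 24.3 CPM in 67 WT, 29.5, 20 and 33.8 in 67 CMD, 42.5, 23.8 and 38.6 in D2 WT and 28.8, 23.3 and 29 in D2 CMD, so the ranges of CMD and WT overlapped in both strains. The log2 effect in 67 was 0.14 (edgeR, adjusted p = 0.657), that in D2 was -0.58 (adjusted p = 0.0790), and the difference of -0.72 ± 0.31 (SE) did not pass (adjusted p = 0.348). Transcript level alone did not separate the genotypes in these 12 libraries, and so did not bear on the doubt about the D2 labels.

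Chrng and Runx1, transcripts known to rise in dystrophic muscle, were high in the D2 libraries labelled CMD, as they were in 67 CMD. Both were picked from the denervation list outside the rule for naming genes. In that list of 18 genes 12 rose and 2 fell in D2 as labelled, and 9 rose and 2 fell in 67. Chrng, the fetal acetylcholine receptor subunit, was at 0.400, 0.338 and 0.416 CPM in D2 WT and 3.24, 31.6 and 15.7 in D2 CMD, and at 0.0533, 0.251 and 0.0272 in 67 WT and 9.86, 5.13 and 8.92 in 67 CMD. Runx1, a transcription factor that muscle induces on denervation, was at 2.54, 1.59 and 2.33 CPM in D2 WT and 16, 40.8 and 40.2 in D2 CMD, and at 1.23, 2.29 and 1.69 in 67 WT and 31.5, 15.3 and 26.6 in 67 CMD. The groups did not overlap in either strain for either gene. Of 18 regeneration and fusion genes 9 rose and 0 fell in D2 as labelled, and 10 rose and 1 fell in 67. Over all tested genes 9.41% rose and 7.38% fell in D2, and 12.4% rose and 10.4% fell in 67. Macrophage markers summed to 106 to 181 CPM in D2 WT and to 190.2 (library 23) to 574 in D2 CMD, and 4 of the 18 markers passed upwards in D2. These measures ran with the D2 genotype labels, while the Y-linked reads ran against the D2 sex labels.

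The coactivator gene Ppargc1a and several enzymes of oxidative metabolism rose in CMD muscle of 67 and fell in D2 muscle labelled CMD. The D2 direction rests on the genotype labels, and with WT and CMD exchanged these genes would be higher in CMD in both strains. Ppargc1a (ENSMUSG00000029167), which encodes the coactivator PGC-1 alpha of mitochondrial biogenesis, was at 21.1, 19.8 and 27 CPM in 67 WT and 32, 59.6 and 31.6 in 67 CMD. In D2 it was at 27.3, 27.1 and 31.1 in WT and 19.5, 9.64 and 12.9 in CMD. CMD lay above WT without overlap in 67 and below WT without overlap in D2. It rose by 0.91 in 67 (adjusted p = 0.0234), changed by -1.14 in D2 (adjusted p = 0.0168), and differed by -2.05 ± 0.42 (SE, edgeR, adjusted p = 0.0410). Leaving out 1 library kept the call in 2 of 12 fits, with adjusted p up to 0.142 without library 23.

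Esrrb (ENSMUSG00000021255), which encodes the estrogen-related receptor beta, a nuclear receptor of the family that PGC-1 alpha coactivates, had a difference of -5.05 ± 1.08 (adjusted p = 0.0426). It was at 0.240, 0.362 and 0.598 CPM in 67 WT, where it was close to undetected, and at 5.99, 10.5 and 10.8 in 67 CMD. In D2 it was already at 11.3, 7.10 and 15.6 in WT and at 2.40, 4.94 and 6.23 in CMD. The rise in 67 was 4.28 (adjusted p = 0.000869), and the D2 effect of -0.77 did not pass (adjusted p = 0.464). D2 CMD lay below D2 WT without overlap, and 67 CMD libraries 11 and 12 lay within the range of D2 WT. The call was kept in 3 of 12 fits with 1 library left out, with adjusted p up to 0.155 without library 23.

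Enzymes of oxidative energy metabolism showed the same arrangement of the 4 groups. Ckmt2 (ENSMUSG00000021622), the mitochondrial creatine kinase of the sarcomere, was at 395, 472 and 506 CPM in 67 WT, 799, 1213 and 1031 in 67 CMD, 1002, 937 and 1722 in D2 WT and 616, 256 and 430.5 in D2 CMD. Both strains separated CMD from WT without overlap, upwards in 67 (1.13, adjusted p = 0.0191) and downwards in D2 (-1.46, adjusted p = 0.0138). The difference was -2.59 ± 0.52 (adjusted p = 0.0360). Mdh1, the cytosolic malate dehydrogenase of the malate-aspartate shuttle, was at 282, 407 and 410.3 CPM in 67 WT, 595, 796 and 741 in 67 CMD, 559, 595 and 771 in D2 WT and 384, 325 and 288 in D2 CMD, a difference of -1.64 ± 0.31 (adjusted p = 0.0284). Oxct1, the enzyme that activates ketone bodies for oxidation, was at 246, 253 and 338, then 403, 447 and 452, then 391, 290.4 and 458 and then 169, 177 and 147 CPM in the same order of groups, a difference of -1.71 ± 0.33 (adjusted p = 0.0345). Its rise in 67 was short of the threshold (0.59, adjusted p = 0.0558), and it fell in D2 (-1.11, adjusted p = 0.00461). Cox5b, a nuclear-encoded subunit of cytochrome oxidase, differed by -0.94 ± 0.21 (adjusted p = 0.0486), from 200.3, 288 and 240.1 CPM in 67 WT and 353, 371 and 359 in 67 CMD against 275, 264 and 345 in D2 WT and 239.6, 203 and 176 in D2 CMD. These 4 genes and the coenzyme Q genes were named after their values were seen. They were called in 4 (Ckmt2), 5 (Mdh1), 3 (Oxct1) and 1 (Cox5b) of the 12 fits that left out 1 library, with adjusted p up to 0.105 (without library 8), 0.0777 (23), 0.114 (8) and 0.153 (23).

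Genes of coenzyme Q, the electron carrier between the first complexes of the respiratory chain and complex III, were also among the 49. Coq8a, a kinase-like protein needed for its synthesis, was at 226, 249 and 351 CPM in 67 WT and 1069, 1039 and 1645 in 67 CMD, and at 848, 561 and 1032 in D2 WT and 424, 442 and 546 in D2 CMD. It rose in 67 by 1.99 (adjusted p = 0.000660), while its D2 effect of -0.36 did not pass (adjusted p = 0.509), and the difference was -2.35 ± 0.52 (adjusted p = 0.0477). Coq10a, which binds coenzyme Q, was at 204, 231 and 212 CPM in 67 WT, 299, 358 and 327 in 67 CMD, 253, 286 and 311 in D2 WT and 202, 150.1 and 187 in D2 CMD, a difference of -1.17 ± 0.23 (adjusted p = 0.0345). Its groups did not overlap in either strain, with CMD above WT in 67 and below WT in D2. Uqcc6 (ENSMUSG00000063320), an assembly factor of complex III, had one of the smallest p-values of all genes. It was at 3.41, 3.74 and 4.71 CPM in 67 WT, 9.64, 6.06 and 8.95 in 67 CMD, 3.89, 4.37 and 4.83 in D2 WT and 2.76, 3.26 and 2.54 in D2 CMD. It rose by 1.03 in 67 (adjusted p = 0.000521), it changed by -0.55 in D2 (adjusted p = 0.0399), and the difference of -1.58 ± 0.25 (adjusted p = 0.0153) was called in 10 of 12 fits with 1 library left out, the exceptions being libraries 8 and 12 (adjusted p up to 0.0504). Leaving out 1 library kept the call of Coq8a in 3 fits and that of Coq10a in 5, with adjusted p up to 0.164 without library 8 and 0.104 without library 23.

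**Figure D2:**
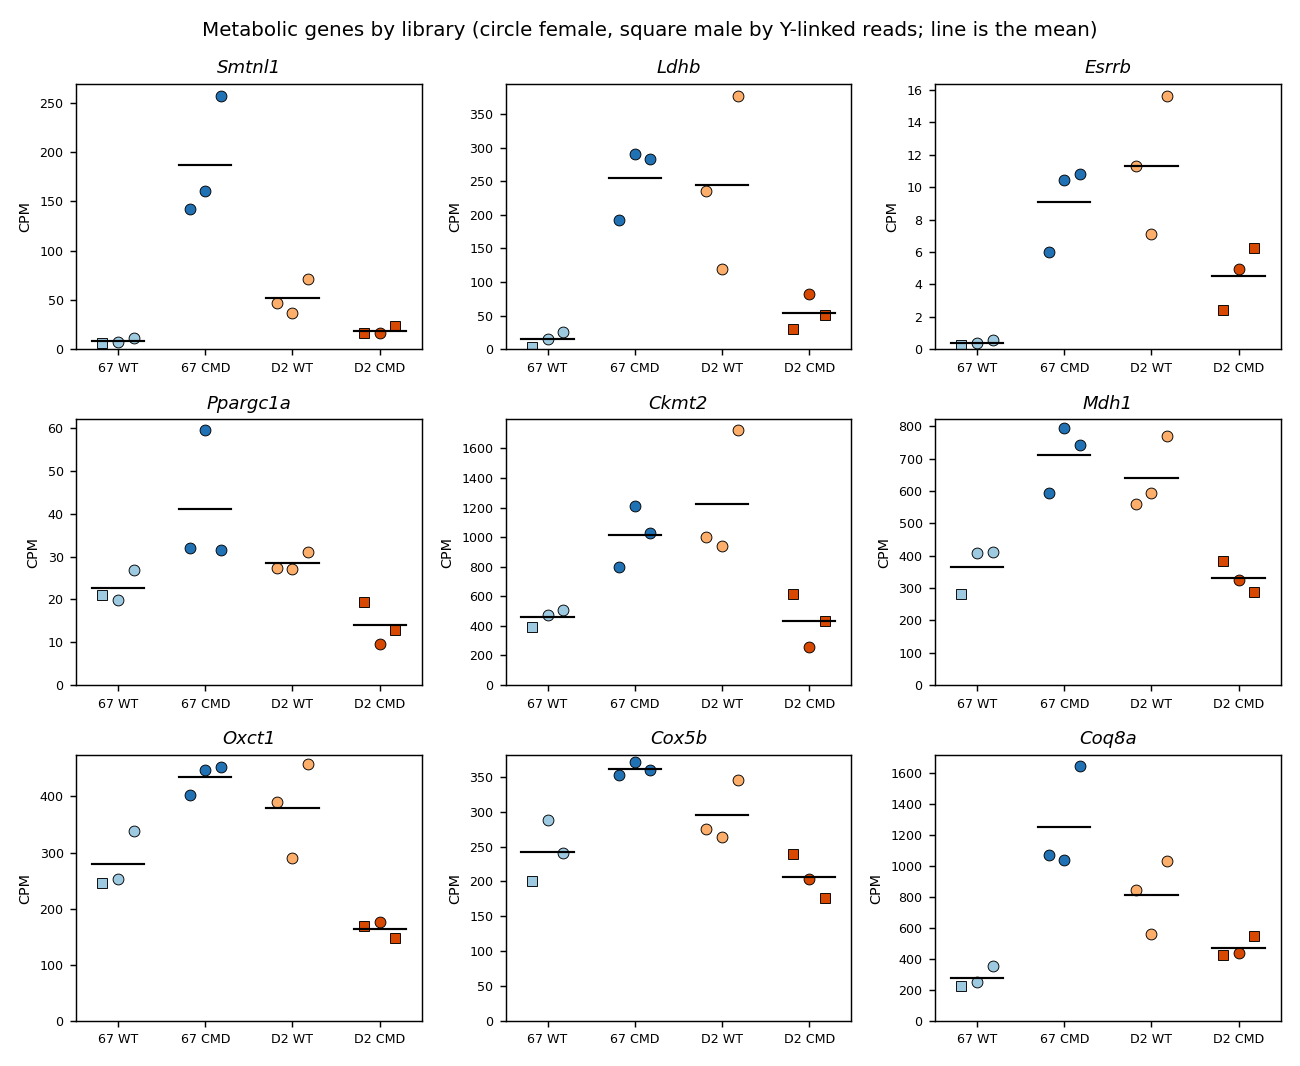
CPM of 9 metabolic genes in each library (points, circle female and square male by Y-linked reads) and the group mean (line), by group. In each panel the 3 libraries of 67 CMD lie above the 3 of 67 WT, and the 3 of D2 CMD lie below the 3 of D2 WT.

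The promoters of 3 of these genes are shown as examples, because the receptors and factors of the mitochondrial programme bind short known motifs. They were picked by hand among genes whose groups separated in opposite directions in the strains. Mdh1, Oxct1, Cox5b and Uqcc6 separated in the same way and are not shown. Each window runs from 250 bases before to 50 bases after the start site in the reference genome (RefSeq, GRCm38.p6), 5′ to 3′ on the gene's strand, and is not the sequence of D2 or 67 mice. The motifs searched on both strands were AAGGTCA, a site of estrogen-related receptors, which 4.72% of 32851 promoters of this length hold, GCGCATGC, a core of NRF1 sites (2.71%), and CCGGAAG, a core of GABP sites (8.86%). Capitals mark a match. Ppargc1a lies on the minus strand at chr5:51567676-51567975, Ckmt2 on the minus strand at chr13:91876836-91877135, and Coq10a on the minus strand at chr10:128369988-128370287.
Ppargc1a: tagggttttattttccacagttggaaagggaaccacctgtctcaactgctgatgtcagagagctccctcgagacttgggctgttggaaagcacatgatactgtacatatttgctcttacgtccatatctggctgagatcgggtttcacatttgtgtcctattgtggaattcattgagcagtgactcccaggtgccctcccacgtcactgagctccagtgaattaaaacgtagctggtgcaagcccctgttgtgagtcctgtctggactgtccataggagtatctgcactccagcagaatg
Ckmt2: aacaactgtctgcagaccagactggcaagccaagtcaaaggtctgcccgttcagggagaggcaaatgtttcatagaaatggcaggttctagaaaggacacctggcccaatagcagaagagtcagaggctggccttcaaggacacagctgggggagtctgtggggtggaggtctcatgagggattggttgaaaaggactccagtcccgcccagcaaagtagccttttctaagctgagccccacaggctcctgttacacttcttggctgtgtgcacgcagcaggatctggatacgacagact
Coq10a: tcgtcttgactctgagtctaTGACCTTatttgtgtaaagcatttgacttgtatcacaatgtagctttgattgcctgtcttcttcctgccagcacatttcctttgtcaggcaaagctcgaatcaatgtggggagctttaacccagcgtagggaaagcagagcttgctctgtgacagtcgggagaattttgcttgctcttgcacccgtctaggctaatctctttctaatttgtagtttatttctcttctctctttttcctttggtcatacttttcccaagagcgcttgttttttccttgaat
The Coq10a window held TGACCTT, the complement of the estrogen-related receptor motif. The windows of Ppargc1a and Ckmt2 held none of these letters, and neither did a second annotated start of Coq10a at chr10:128368931-128369230. A match is a description of the reference sequence, and no binding was measured.

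In the lists of mitochondrial genes nearly all differences were negative, and few passed singly. Of 21 tested genes of the oxidative phosphorylation list 1 was called in the difference, against 0.514% of all genes. It was the coactivator gene Ppargc1a, and none of the respiratory chain and ATP synthase subunits on the list was called. All 21 differences were negative, with a median of -0.85 against 0.03 over all tested genes. In 67, 3 rose and 0 fell (median 0.31, all genes 0), and in D2, 0 rose and 13 fell (median -0.60, all genes 0.04). The shares over all tested genes were 12.4% raised and 10.4% lowered in 67, and 9.41% and 7.38% in D2. The complex II subunit Sdhb had a mean of 261 CPM in 67 WT and 435 in 67 CMD against 428 in D2 WT and 213 in D2 CMD, and its difference of -1.39 just missed the threshold (adjusted p = 0.0501). The 3 genes raised in 67 became 0 without library 7, 8 or 11 and 6 without library 24. The 13 genes lowered in D2 became 1 without library 21, 0 without library 23, 5 without library 24 and 20 without library 22. The difference itself was called for 20 of the 21 genes when library 22 was left out, with no sex term for 8 and with sex as labelled for 13. The median difference stayed between -1.09 and -0.68 over the fits with 1 library left out.

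Of 20 genes of the citric acid cycle and fatty acid oxidation, 0 were called in the difference by edgeR, 19 differences were negative and the median was -0.94. Fabp3, the fatty acid carrier of heart and oxidative muscle, rose in 67 from a mean of 176 CPM to 641 (1.69, adjusted p = 0.02), and was at 553 in D2 WT and 253 in D2 CMD (-0.66, adjusted p = 0.39). Its difference was -2.35 (adjusted p = 0.172). In 67, 3 of the 20 rose, a count that was 0 without library 7, 9 or 12, 1 without library 11 and 6 without library 10. In D2, 5 fell, among them citrate synthase, Cs, by 0.55 (adjusted p = 0.034). Beside these counts, 12.4% of all tested genes rose in 67 and 7.38% fell in D2. With sex as labelled 13 of the 20 were called in the difference, and the D2 count was 0 without library 23, 2 without library 20, 21 or 24 and 10 without library 22. The 13 transcripts encoded by the mitochondrial genome had negative differences throughout, with a median of -0.86, and 0 were called. They summed to 130100, 139700 and 161700 CPM in D2 WT and to 117100 (library 22), 70860 (23) and 79500 (24) in D2 CMD. In 67 they summed to 116700, 123400 and 136800 in WT and to 147700, 168600 and 141500 in CMD, so that D2 CMD libraries 23 and 24 were the lowest of the 12.

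Slow fibre transcripts rose in 67 from very low levels, while in D2 the levels of WT and CMD overlapped. Of 13 tested slow fibre genes 10 rose in 67, against 12.4% of all tested genes, and 0 fell, with a median effect of 5.44. In D2, where 9.41% of all tested genes rose and 7.38% fell, 0 passed in either direction, with a median of 0.62. That D2 median was -0.74 without library 23, 0.03 without library 20, 1.35 without library 21, 0.96 without library 22, 0.40 without library 19, 0.32 with no sex term and 0.12 with sex as labelled. Summed, the list was at 63.3, 45.2 and 65.0 CPM in 67 WT and at 1338, 601 and 1425 in 67 CMD. In D2 it was at 923, 235 and 2980 CPM in WT and at 358, 1994 and 1310 in CMD, so the D2 groups overlapped widely and all 6 D2 libraries lay above all 3 of 67 WT. All 13 differences were negative, with a median of -5.15, and 0 were called by edgeR, the smallest adjusted p being 0.162 for Tnni1, slow troponin I. Tnni1 rose by 6.96 in 67, from a mean of 0.268 CPM to 39.2, and was at 49.6 in D2 WT and 84.5 in D2 CMD. The slow myosin heavy chain Myh7 spread from 0.917 to 923 CPM among the 3 D2 WT libraries. The 10 raised genes in 67 became 6 without library 9 or without library 10, and the median difference stayed between -5.67 and -4.06 over the fits with 1 library left out. A difference in the number of slow fibres and a difference in RNA per fibre cannot be told apart in bulk tissue.

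**Figure D3:**
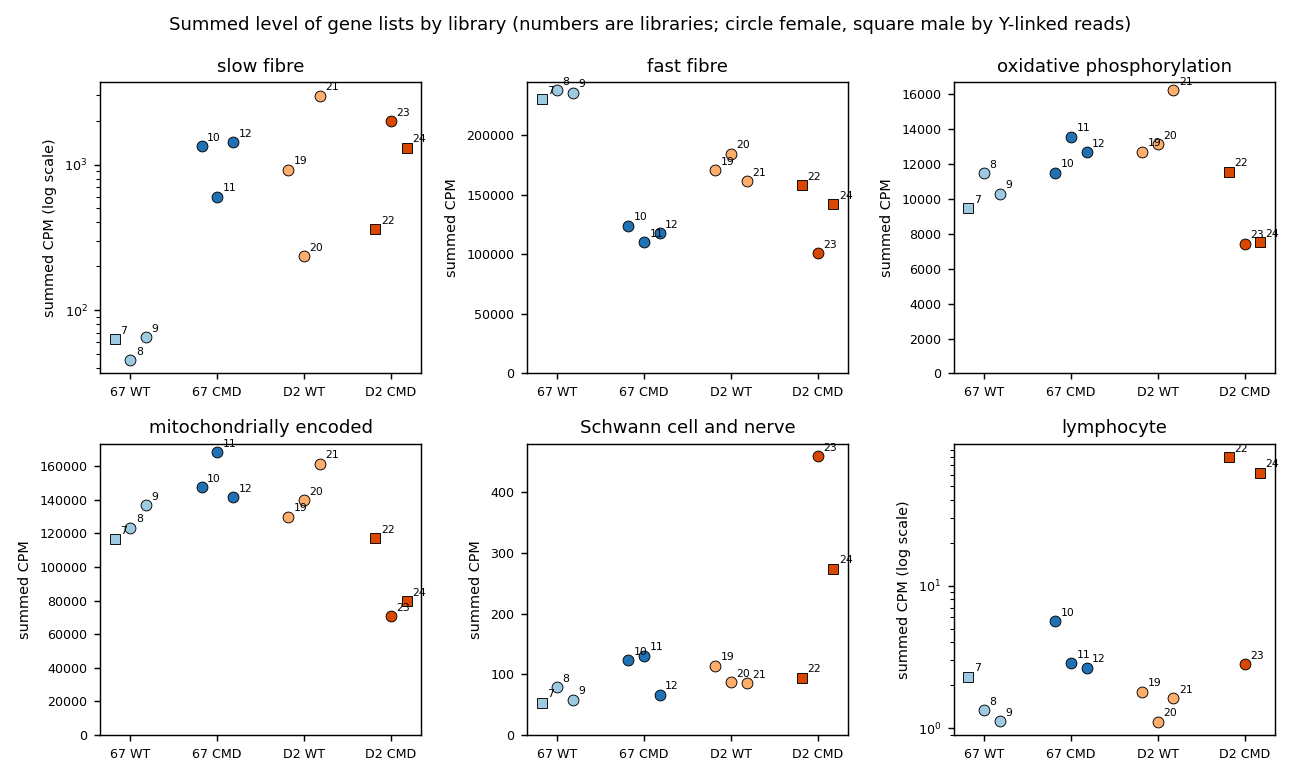
Summed CPM of 6 gene lists in each of the 12 libraries, by group, with library numbers beside the points (circle female, square male by Y-linked reads); slow fibre and lymphocyte panels have a log axis. Slow fibre transcripts are low in the 3 libraries of 67 WT alone, oxidative phosphorylation and mitochondrially encoded sums are lowest in D2 CMD libraries 23 and 24, Schwann cell sums are highest in library 23, and lymphocyte sums are high in libraries 22 and 24.

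Several genes that passed singly in the difference act in metabolism, contraction or calcineurin signalling of muscle fibres. Ldhb (ENSMUSG00000030246), the heart-type lactate dehydrogenase subunit, was at 3.84, 14.6 and 25 CPM in 67 WT and 193, 291 and 283 in 67 CMD, and at 236, 119 and 377 in D2 WT and 29.4, 82.6 and 50.4 in D2 CMD. It rose by 3.91 in 67 (adjusted p = 0.00189), and the D2 effect of -1.24 did not pass (adjusted p = 0.280), although the D2 groups did not overlap. The difference was -5.16 ± 1.14 (adjusted p = 0.0480) and was kept in 2 of 12 fits with 1 library left out, with adjusted p up to 0.160 without library 23.

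Smtnl1 (ENSMUSG00000027077), smoothelin-like 1, a regulator of contraction in smooth and skeletal muscle, had the same arrangement at 6.16, 7.41 and 11.4 CPM in 67 WT, 143, 161 and 257 in 67 CMD, 47.1, 36.8 and 71.4 in D2 WT and 16.4, 16.4 and 23.7 in D2 CMD. Its rise in 67 was 4.20 (adjusted p = 0.000250), its D2 effect -0.76 (adjusted p = 0.403) and its difference -4.96 ± 0.90 (adjusted p = 0.0269), kept in 7 of 12 fits with 1 library left out (up to 0.0943 without library 8). Fndc5 (ENSMUSG00000001334), the precursor of the secreted peptide irisin and a known target of PGC-1 alpha, was at 14.3, 20.2 and 20.6 CPM in 67 WT, 43.8, 49.8 and 40.8 in 67 CMD, 96.4, 56.1 and 96.2 in D2 WT and 23.3, 17.6 and 25.8 in D2 CMD. It rose in 67 (1.24, adjusted p = 0.0217) and fell in D2 (-1.76, adjusted p = 0.00862), a difference of -2.99 ± 0.58 (adjusted p = 0.0321, and 0.104 without library 23). Rcan2, a regulator of the phosphatase calcineurin, was at 19.4, 16.5 and 16 CPM in 67 WT, 52.5, 64.6 and 61 in 67 CMD, 73.1, 50.8 and 84.3 in D2 WT and 41.2, 38.5 and 52.9 in D2 CMD, a difference of -2.70 ± 0.47 (adjusted p = 0.0236, and 0.0709 without library 8). It was named after its values were seen, and its D2 groups overlapped.

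Fast fibre and glycolytic transcripts were lower in CMD of both strains, with no call in the difference. Of 14 fast fibre genes 10 fell and 2 rose in 67 (median -0.92), 2 fell in D2 (median -0.40), and 0 of the differences passed in edgeR, with a median of 0.50 and 12 of 14 positive. Of 18 genes of glycolysis and glycogen 11 fell in 67 and 10 fell in D2, with medians of -0.72 and -0.82, and the median difference was -0.01. Over all tested genes 10.4% fell and 12.4% rose in 67, and 7.38% fell in D2. Summed fast fibre CPM was 230200 to 237600 in 67 WT and 110400 to 124000 in 67 CMD, and 161600 to 184500 in D2 WT and 100900 to 157900 in D2 CMD. The glycolysis count in D2 was 1 without library 23, 6 without library 20, 21 or 24 and 16 without library 22, and in 67 it was 4 without library 8 or 12 and 7 without library 9. The fast fibre count in D2 was 0 without any one of libraries 19, 20, 21, 23 and 24, 1 without any one of libraries 10, 11 and 12, and 5 without library 22.

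**Figure D4:**
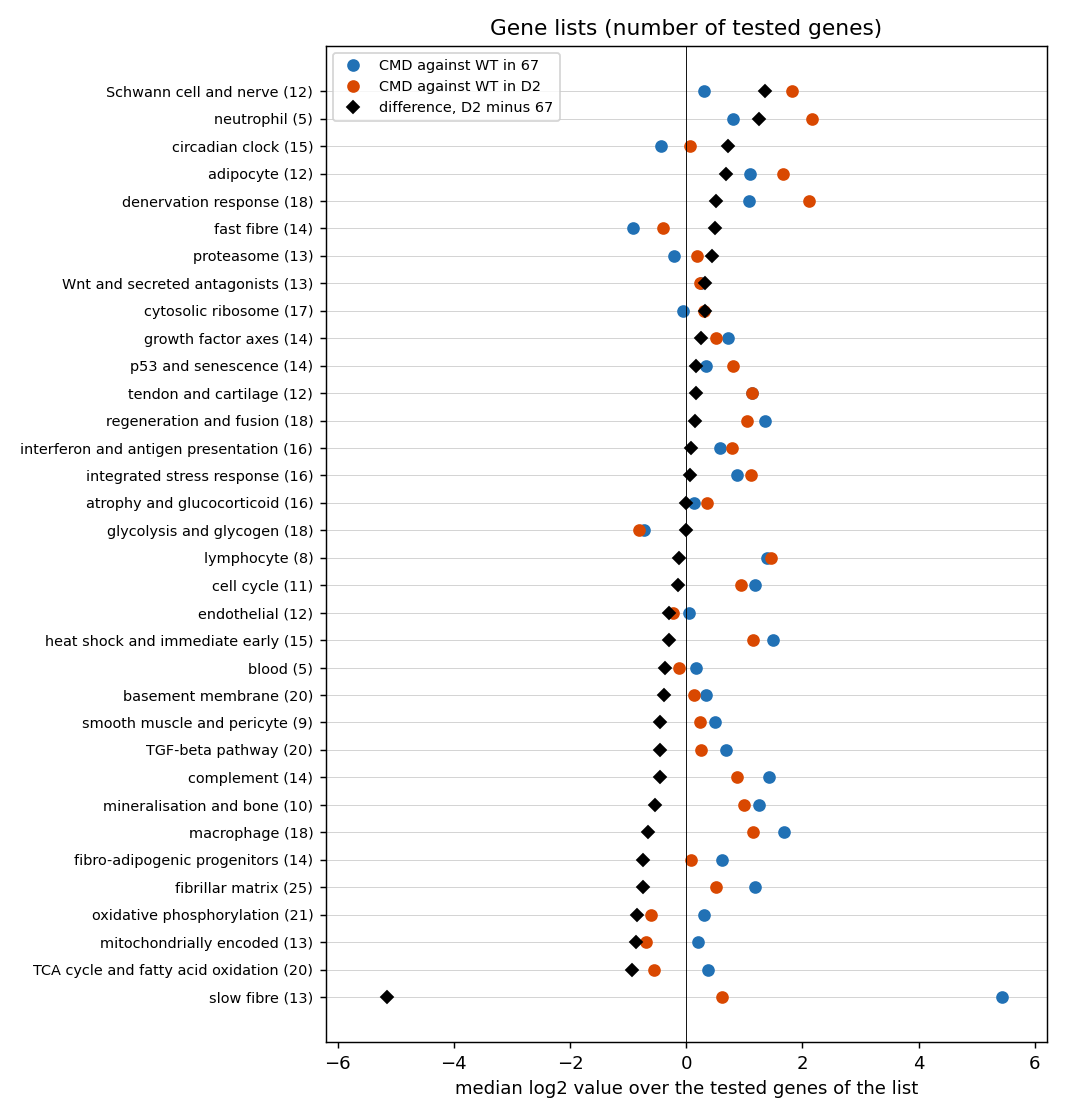
Median log2 value over the tested genes of each of 34 gene lists, for CMD against WT in 67 (blue), in D2 (orange) and for the difference D2 minus 67 (black diamonds), ordered by the difference. The slow fibre list has the lowest median difference, -5.15, followed by the 3 mitochondrial lists between -0.94 and -0.85, and the Schwann cell and nerve list has the highest, 1.36.

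Ccn2, Mfap5 and Fbn1, which encode proteins of the extracellular matrix, had a CMD effect that was lower in D2 than in 67. Ccn2 (ENSMUSG00000019997), connective tissue growth factor, a matricellular protein that TGF-beta and mechanical load induce, was at 3.92, 10.5 and 8.16 CPM in 67 WT and 63.5, 54.1 and 81.2 in 67 CMD. In D2 it was at 20, 15.6 and 20.9 in WT and 9.95, 25.7 and 15.6 in CMD, where the groups overlapped. It rose by 2.98 in 67 (adjusted p = 7.19e-05), its D2 effect was 0.27 (adjusted p = 0.641), and the difference was -2.71 ± 0.53 (adjusted p = 0.0345). The call held with no sex term and with sex as labelled (adjusted p = 0.0148 and 0.00569), and in 3 of 12 fits with 1 library left out, with adjusted p up to 0.0777 without library 23. Of the 20 TGF-beta pathway genes it was the 1 called, 15 differences were negative and the median was -0.46. With no sex term 12 of the 20 were negative with a median of -0.21, and with sex as labelled 12 were negative with a median of -0.10, 1 gene called higher and 1 lower. Of the 20, 5 rose in 67 and 4 in D2, and the D2 count was 2 without library 20 and 1 without library 23. Over all tested genes 12.4% rose in 67 and 9.41% in D2, and 0.514% were called in the difference.

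Mfap5 (ENSMUSG00000030116), a microfibril protein made by fibroblasts and fibro-adipogenic progenitors, was at 8.51, 5.85 and 6.80 CPM in 67 WT, 40.2, 28.6 and 38.3 in 67 CMD, 16, 9.32 and 13.7 in D2 WT and 13.5, 19.4 and 15.6 in D2 CMD. It rose in 67 by 2.40 (adjusted p = 4.80e-05) and overlapped between the D2 groups (0.22, adjusted p = 0.601), a difference of -2.17 ± 0.41 (adjusted p = 0.0284) that was called in 6 of 12 fits with 1 library left out (up to 0.0993 without library 8). It was the 1 of 14 fibro-adipogenic progenitor genes called, with a median difference of -0.74 over the list, which was -0.47 with no sex term, -0.27 with sex as labelled and -1.23 without library 23. Of these 14, 6 rose in 67, against 12.4% of all tested genes. In D2, where 9.41% of all tested genes rose and 7.38% fell, 0 of the 14 passed. The count in 67 was 1 to 3 without any one of libraries 7 to 11. Fbn1 (ENSMUSG00000027204), fibrillin 1, the core of microfibrils, was at 31.8, 14.5 and 20.6 CPM in 67 WT, 41.2, 35.5 and 36.3 in 67 CMD, 98.7, 53.3 and 93.1 in D2 WT and 56.1, 42 and 65.5 in D2 CMD. Its difference of -2.01 ± 0.45 passed narrowly (adjusted p = 0.0493) and did not pass with no sex term (0.199), with sex as labelled (0.128) or in 10 of the 12 fits with 1 library left out (up to 0.174 without library 8).

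The direction of the matrix and immune lists depended on how sex was coded. As a background for their counts, 12.4% of all tested genes rose in 67, and 9.41% rose and 7.38% fell in D2. Of 25 fibrillar matrix genes 13 rose in 67 and 4 rose and 1 fell in D2, and the median difference of -0.74 became -0.04 with no sex term and 0.15 with sex as labelled, under which 16 rose in D2. The D2 count of 4 was 2 without library 20 and 1 without library 23. Of 18 macrophage genes 15 rose in 67 and 4 in D2, and the median difference of -0.65 became 0.09 and 0.35. The macrophage count in 67 was 9 without library 9, and that in D2 was 2 without library 20 and 10 and 12 under the other sex codings. Of 14 complement genes 7 rose in 67 and 3 in D2, with a median difference of -0.46 that became 0.71 and 0.97. Without library 20 the complement count in D2 was 0, without library 21 or 23 it was 1, and without library 9 or 10 the count in 67 was 4. In 67 CMD the macrophage list summed to 385, 271 and 422 CPM, and in D2 CMD to 574 (library 22), 190.2 (23) and 523 (24), against 106 to 181 in the 6 WT libraries. Lymphocyte markers summed to 80.1 CPM in library 22 and 62.0 in library 24, against 1.11 to 5.65 in the other 10, library 23 included. The libraries with these sums were the 2 that the Y-linked reads show as male in D2 CMD, and sex and the individual sample cannot be told apart there. The part of these markers in the matrix genes was not tested.

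Genes with a higher CMD effect in D2 were led by transcripts that D2 WT muscle almost lacked. Fggy (ENSMUSG00000028573), a member of the carbohydrate kinase family, was at 6.96, 5.77 and 6.31 CPM in 67 WT and 10.4, 7.96 and 11.6 in 67 CMD. In D2 WT it was at 0.200, 0.0724 and 0.0208 CPM, 13 reads over the 3 libraries, and in D2 CMD at 2.96, 12.3 and 12. CMD lay above WT in both strains, by 0.75 in 67 (adjusted p = 0.210) and by 6.35 in D2 (adjusted p = 6.43e-06), so that D2 CMD reached the level of 67 in libraries 23 and 24. The difference was 5.60 ± 0.75 (SE, edgeR, adjusted p = 0.00733), with adjusted p up to 0.0465 over the fits with 1 library left out.

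Dsp (ENSMUSG00000054889), desmoplakin, the plaque protein of desmosomes, was at 0.133, 1.59 and 0.707 CPM in 67 WT and 0.435, 0.434 and 0.737 in 67 CMD, and at 0, 0.0483 and 0 in D2 WT and 2.54, 5.43 and 17.1 in D2 CMD. D2 WT held 2 reads and D2 CMD 1450, a ratio of 587.5 by depth with a 95% counting interval of 162.3 to 4856, and the difference passed (adjusted p = 0.0153). Ckmt1 (ENSMUSG00000000308), the mitochondrial creatine kinase of brain and other tissues, had a mean of 0.675 CPM in 67 WT, 0.558 in 67 CMD, 0.0213 in D2 WT and 1.11 in D2 CMD. Its libraries were at 0.613, 1.06 and 0.354 in 67 WT, 0.411, 0.579 and 0.684 in 67 CMD, 0.0222, 0 and 0.0416 in D2 WT and 1.06, 0.920 and 1.36 in D2 CMD. Its 3 reads in D2 WT against 186 in D2 CMD gave a ratio of 50.24 (16.93 to 245.8), with adjusted p = 0.0153 for the difference. Both calls were lost in 1 of the 12 fits with 1 library left out, that without library 8 (adjusted p = 0.0503 for each). These intervals cover counting error.

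Gadd45a (ENSMUSG00000036390), a stress-induced regulator that loss of innervation is known to induce in muscle, had a higher CMD effect in D2. It was at 13.3, 40.7 and 36 CPM in 67 WT, 125, 68.4 and 109 in 67 CMD, 18, 17.7 and 24 in D2 WT and 61.4, 242 and 153 in D2 CMD. The gene rose in both strains, by 1.52 and 3.54 (adjusted p = 0.00196 and 6.43e-06), and the difference of 2.02 ± 0.45 (adjusted p = 0.0480) was not called with no sex term (0.463) or sex as labelled (0.591). Its highest level was in library 23, and the call was lost in 11 of the 12 fits with 1 library left out, with adjusted p up to 0.163 without library 8.

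Most genes of the denervation list passed upwards in D2, and many of them did in 67. Of the 18 genes 9 rose and 2 fell in 67 (median 1.08) and 12 rose and 2 fell in D2 (median 2.12), 2 were called in the difference, Gadd45a among them, and the median difference was 0.51. Over all tested genes 12.4% rose and 10.4% fell in 67, 9.41% rose and 7.38% fell in D2, and 0.514% were called in the difference. Chrng went from a mean of 0.11 CPM to 7.97 in 67 and from 0.385 to 16.8 in D2, effects of 6.08 and 5.53 whose difference was -0.55 (adjusted p = 0.925). Runx1 had effects of 3.74 and 4.08. The counts ran from 8 to 10 raised in 67 and from 10 to 13 in D2 over the fits with 1 library left out. The regeneration and fusion genes had medians of 1.36 in 67 and 1.05 in D2, and 0 of the 18 were called in the difference (median 0.16).

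Schwann cell and nerve transcripts rose in D2 CMD with a wide spread between its libraries. Of 12 genes 9 rose in D2 (median 1.82) and 0 in 67 (median 0.31), 11 of 12 differences were positive with a median of 1.36, and 0 were called in the difference. Over all tested genes 9.41% rose in D2 and 12.4% in 67. Mbp, myelin basic protein, went from a mean of 13.6 CPM to 57.5 in D2 (2.36, adjusted p = 0.0004) and from 10.6 to 20.3 in 67 (0.76, adjusted p = 0.11), a difference of 1.60 (adjusted p = 0.159). The list summed to 94.2 CPM in library 22, 459.7 in library 23 and 273.7 in library 24, against 85.1 to 114.3 in D2 WT, 53.2 to 78.3 in 67 WT and 66.0 to 130.8 in 67 CMD. Library 22 lay within the range of D2 WT. The part of these markers in the genes with a higher effect in D2 was not tested. The 9 raised genes became 1 without library 23, 3 without library 20 or 21 and 2 with sex as labelled.

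Myt1l and Trim9, named after their values were seen, had 0 reads in D2 WT and low levels in 67, and Slc17a7 was lower in D2 WT than in 67 WT. Myt1l, a neuronal transcription factor, was at 0.507, 1.62 and 0.871 CPM in 67 WT, 0.580, 0.600 and 0.789 in 67 CMD, at 0 reads in all 3 D2 WT libraries and at 0.0200, 0.124 and 0.151 in D2 CMD (adjusted p = 0.0426 for the difference, and 0.0549 with no sex term). Trim9, a ubiquitin ligase of neurons, was at 0.587, 1.004 and 0.354 in 67 WT, 0.628, 0.289 and 0.763 in 67 CMD, at 0 reads in D2 WT and at 0.0400, 0.265 and 0.118 in D2 CMD (adjusted p = 0.0493). Slc17a7 (ENSMUSG00000070570), the vesicular glutamate transporter VGLUT1, was at 3.87, 6.24 and 3.35 CPM in 67 WT, 2.88, 2.05 and 1.79 in 67 CMD, 0.512, 0.386 and 0.271 in D2 WT and 0.901, 0.796 and 0.740 in D2 CMD. For Slc17a7 CMD lay below WT in 67 and above WT in D2, with a difference of 2.43 ± 0.53 (adjusted p = 0.0477). Each of these 3 calls was kept in 1 of the 12 fits with 1 library left out, with adjusted p up to 0.124 (Myt1l, without library 8), 0.168 (Trim9, 23) and 0.166 (Slc17a7, 8).

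Other genes with a higher effect in D2 fell in 67 and were level or higher in D2. Adora1 (ENSMUSG00000042429), the adenosine A1 receptor, was at 21.6, 27.6 and 33.4 CPM in 67 WT, 6.23, 10.1 and 7.45 in 67 CMD, 11.8, 7.41 and 12.7 in D2 WT and 21.7, 28 and 9.69 in D2 CMD. It fell in 67 (-1.88, adjusted p = 0.00199), and its D2 groups overlapped (1.06, adjusted p = 0.0639), a difference of 2.93 ± 0.55 (adjusted p = 0.0284). Pfkfb4 (ENSMUSG00000025648), which sets the level of the glycolytic activator fructose 2,6-bisphosphate, was at 67.9, 87.9 and 74.8 CPM in 67 WT, 30.9, 26.7 and 26.3 in 67 CMD, 35.1, 46.2 and 33.2 in D2 WT and 53.6, 32 and 51.2 in D2 CMD, a difference of 1.96 ± 0.40 (adjusted p = 0.0409). Sipa1l1 (ENSMUSG00000042700), a GTPase-activating protein for Rap, had little spread, at 17.3, 19.6 and 20.9 CPM in 67 WT, 7.83, 8.35 and 7.97 in 67 CMD, 17.6, 15.7 and 16.8 in D2 WT and 15.5, 17 and 17.2 in D2 CMD. It fell by 1.28 in 67 (adjusted p = 4.18e-05), with an effect of 0.04 in D2 (adjusted p = 0.897), and its difference of 1.32 ± 0.22 (adjusted p = 0.0168) was called in 8 of 12 fits with 1 library left out, lost without libraries 8, 9, 12 and 23. The call of Adora1 was kept in 5 of these fits and that of Pfkfb4 in 3, with adjusted p up to 0.116 without library 23 and 0.124 without library 8.

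The 3 genes lowered in 67 and raised in D2 were Slc17a7, Lamc3 and Fgfbp1. Lamc3 (ENSMUSG00000026840), a laminin gamma chain that basement membranes use outside the usual gamma 1 form, was at 4.27, 1.14 and 1.12 CPM in 67 WT, 0.169, 0.517 and 0.263 in 67 CMD, 0.378, 0.314 and 0.416 in D2 WT and 3.30, 1.66 and 2.12 in D2 CMD. It fell in 67 (-1.92, adjusted p = 0.0122) and rose in D2 (1.59, adjusted p = 0.0394), a difference of 3.51 ± 0.74 (adjusted p = 0.0419, and 0.209 without library 23). Fgfbp1 (ENSMUSG00000048373), a secreted carrier of fibroblast growth factors, was at 3.63, 6.86 and 7.15 CPM in 67 WT and 1.33, 1.68 and 1.34 in 67 CMD, where it fell (-2.50, adjusted p = 0.00524). In D2 it held 2 reads in WT and 32 in CMD, a ratio of 12.97 (95% counting interval 3.308 to 111.7), and library 23 gave most of the latter at 0.513 CPM. Its call in the difference (adjusted p = 0.0345) was not kept without library 23 (0.416), with no sex term (0.111) or with sex as labelled (0.0805). Snx10 (ENSMUSG00000038301), a sorting nexin of endosomes, was at 14.4, 13.7 and 11.9 CPM in 67 WT, 11.1, 7.18 and 9.68 in 67 CMD, 5.34, 3.16 and 2.91 in D2 WT and 10.5, 16.6 and 8.04 in D2 CMD, a difference of 2.10 ± 0.45 (adjusted p = 0.0426, and 0.219 without library 23).

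**Figure D5:**
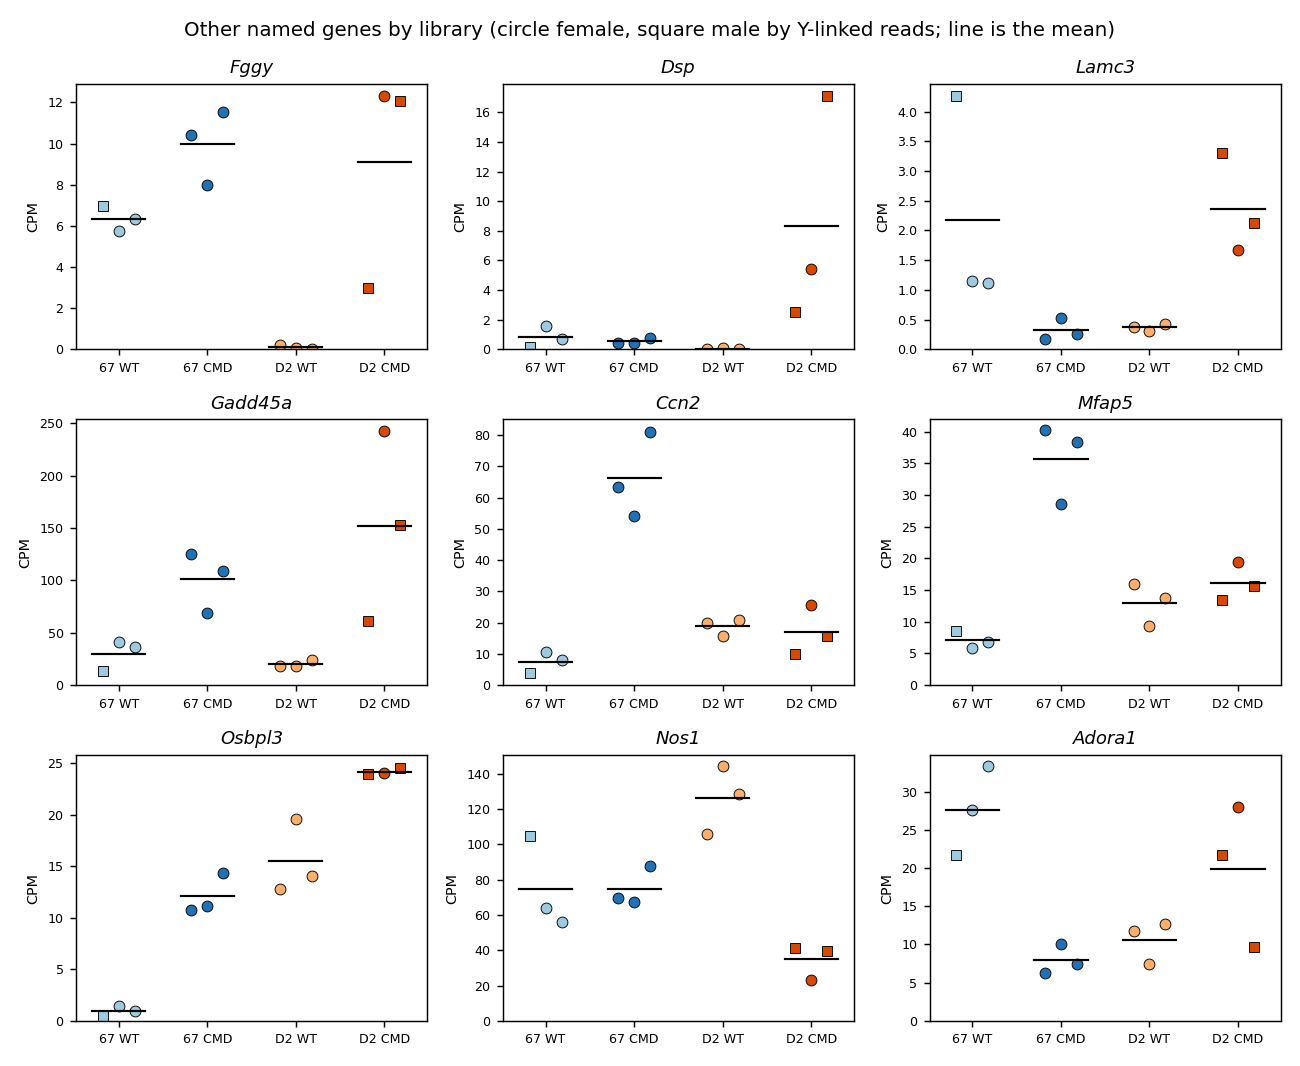
CPM of 9 further genes in each library (points, circle female and square male by Y-linked reads) and the group mean (line), by group. In the panels of Fggy, Dsp, Lamc3 and Gadd45a the 3 libraries of D2 CMD lie above the 3 of D2 WT, in those of Ccn2, Mfap5 and Osbpl3 the 3 of 67 CMD lie above the 3 of 67 WT, in that of Adora1 67 CMD lies below 67 WT, and in that of Nos1 D2 CMD lies below D2 WT.

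Dusp18, Osbpl3 and Tppp3 were among the other genes with a lower effect in D2. Dusp18 (ENSMUSG00000047205), a dual-specificity phosphatase, was at 5.20, 2.87 and 4.73 CPM in 67 WT, 47, 79 and 36.9 in 67 CMD, 16.4, 16.1 and 18 in D2 WT and 5.26, 10.3 and 8.28 in D2 CMD. It rose by 3.45 in 67 (adjusted p = 0.000128) while the D2 effect of -0.77 did not pass (adjusted p = 0.235), and the difference of -4.21 ± 0.67 (adjusted p = 0.0153) was lost without library 8 or 9 (up to 0.0523). Osbpl3 (ENSMUSG00000029822), an oxysterol-binding protein at contacts of the endoplasmic reticulum, was at 0.480, 1.48 and 0.925 CPM in 67 WT, 10.8, 11.2 and 14.3 in 67 CMD, 12.8, 19.6 and 14.1 in D2 WT and 24, 24 and 24.6 in D2 CMD. It rose in both strains, by 3.54 and 0.98 (adjusted p = 2.23e-06 and 0.0249), with D2 WT already at the level of 67 CMD, and the difference of -2.57 ± 0.42 (adjusted p = 0.0153) was lost without library 9, 12 or 23 (up to 0.0572). Tppp3 (ENSMUSG00000014846), which promotes tubulin polymerisation, rose in 67 and fell in D2, at 18.1, 19.3 and 13.9 CPM in 67 WT, 68.6, 76.8 and 28.9 in 67 CMD, 33, 25.8 and 35.7 in D2 WT and 12.6, 17.4 and 11.6 in D2 CMD. Its difference was -2.75 ± 0.46 (adjusted p = 0.0168), lost without library 8 or 9 (up to 0.0523).

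Nos1 (ENSMUSG00000029361), the neuronal nitric oxide synthase that the dystrophin complex holds at the membrane, was named after its values were seen. It was at 105, 64.1 and 56.3 CPM in 67 WT and 69.6, 67.5 and 87.9 in 67 CMD, which overlapped, and at 106, 144 and 129 in D2 WT and 41.3, 23.4 and 39.8 in D2 CMD, which did not. Its effect was 0.08 in 67 (adjusted p = 0.826), and it fell by 2.00 in D2 (adjusted p = 0.000124), a difference of -2.09 ± 0.37 (adjusted p = 0.0269). The call held in 7 of 12 fits with 1 library left out and was lost without libraries 8, 9, 12, 21 and 23 (up to 0.0827). Khdrbs3, an RNA-binding splicing regulator, differed by -3.24 ± 0.67 (adjusted p = 0.0409), from 2.67, 3.07 and 3.70 CPM in 67 WT and 16.4, 26.9 and 16.1 in 67 CMD against 9.77, 5.09 and 10 in D2 WT and 5.54, 5.08 and 4.98 in D2 CMD. Apol6, of the apolipoprotein L family, differed by -3.16 ± 0.65 (adjusted p = 0.0409), from 8.77, 7.16 and 9.30 CPM in 67 WT and 49.2, 67.9 and 46.9 in 67 CMD against 39.1, 20.5 and 37.2 in D2 WT and 35.5, 30.6 and 24.9 in D2 CMD. Abhd18, of the alpha/beta hydrolase family, differed by -2.71 ± 0.60 (adjusted p = 0.0480), from 4.69, 7.78 and 7.998 CPM in 67 WT and 13.8, 19.9 and 18.9 in 67 CMD against 18.8, 9.82 and 17.7 in D2 WT and 4.28, 4.19 and 3.20 in D2 CMD. Each of these 3 was kept in 2 of the 12 fits with 1 library left out, with adjusted p up to 0.124 (Khdrbs3 and Apol6, without library 8) and 0.160 (Abhd18, without library 23).

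Grb14 (ENSMUSG00000026888), an adaptor that inhibits the insulin receptor, was called in opposite directions in the strains without passing in the difference. It was at 5.12, 13.8 and 14.2 CPM in 67 WT, 32.5, 35.8 and 21.8 in 67 CMD, 40.5, 36.7 and 41.9 in D2 WT and 14.9, 10 and 10.3 in D2 CMD. The 67 effect of 1.44 had an adjusted p of 0.0333 in edgeR, the D2 effect of -1.73 one of 0.0310, and the difference was -3.16 ± 0.72 (adjusted p = 0.0583).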

How the data were processed

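The authors deposited 1 table of gene counts per sample, and the column of total exon reads, which holds whole-number counts that are not normalized, was used. Per the labels' protocols, RNA was extracted with TRIzol, made into stranded mRNA libraries and sequenced as paired reads on an Illumina NextSeq instrument. The genome build was GRCm39 (mm39), per the submitters' processing notes, and neither the labels nor these notes name an aligner or counter. Of 25369 genes listed, 14789 passed filterByExpr (minimum count 10, minimum total count 15), and 6830 had 0 reads in all libraries. All 24 libraries entered 1 edgeR 4.0.16 quasi-likelihood fit (R 4.3.3, limma 3.58.1) with 8 groups, sex by the reads of 4 Y-linked genes (male above 5 CPM) and TMM scaling. P-values were adjusted by Benjamini-Hochberg over all tested genes at 0.05. Each SE is the absolute log2 value divided by the square root of the F statistic of its test. It was derived from the test and is not a separate estimate of error. DESeq2 1.42.0, other filters, scalings, sex codings and libraries left out were alternatives, and the fits of gene lists under other sex codings and without single libraries were added after seeing the data. The code was tested on simulated data. The members and the 34 gene lists (504 genes, 478 tested) were chosen with earlier results of these data known. Named genes were Lama2, the 6 called genes with the most positive and the 6 with the most negative difference among those whose log2 CPM averaged 1 or more and whose groups were separate in 1 or both strains, the 4 with the smallest p in each direction, up to 4 called in opposite directions in each orientation, and the called member of each list with the smallest p. A gene that this rule names is not reported here. Other called genes are said to be named after their values were seen. Chrng, Runx1, Sdhb, Fabp3, Cs, Tnni1, Myh7 and Mbp are members of gene lists that were also picked outside this rule. Counting intervals are 95% and cover counting error.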

Additional observations from a re-analysis of the deposited data

Results flagged for a closer look

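Each of the following genes was flagged because the test of the difference itself found unequal CMD effects in D2 and 67, and each value is the log2 difference, D2 minus 67. Higher in D2 were Fggy (5.60), Lamc3 (3.51), Adora1 (2.93), Slc17a7 (2.43), Snx10 (2.10), Gadd45a (2.02), Pfkfb4 (1.96) and Sipa1l1 (1.32). Dsp (9.71), Fgfbp1 (6.55) and Ckmt1 (6.49) were also higher, and these fitted values depend on the prior count because D2 WT held 2 or 3 reads of each. Lower in D2 were Ldhb (-5.16), Esrrb (-5.05), Smtnl1 (-4.96), Dusp18 (-4.21), Khdrbs3 (-3.24), Apol6 (-3.16), Fndc5 (-2.99), Tppp3 (-2.75), Abhd18 (-2.71), Ccn2 (-2.71), Osbpl3 (-2.57), Mfap5 (-2.17), Ppargc1a (-2.05), Fbn1 (-2.01) and Uqcc6 (-1.58).

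Y-linked reads appeared in a pair of D2 CMD libraries whose labels say female, 4927 in library 22 and 4858 in library 24.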

How the results depend on the processing

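For the difference, the 76 genes became 189 with no sex term, 445 with sex as labelled, 151 with only libraries female by their reads, 317 with DESeq2, 15 with only the 12 libraries in the fit and 18 without libraries 16 and 23 together. Leaving out 1 library at a time gave 4 to 246. With no filter it was 83, with RLE size factors 64, with unique exon reads 79 and with an absolute log2 value of at least 1 it was 74. For 67, the 3372 genes became 1598 with an absolute log2 value of at least 1, and 1933 to 3514 with 1 library left out. For D2, the 2482 genes became 3754 with sex as labelled, 941 without libraries 16 and 23 together, 1242 with an absolute log2 value of at least 1, and 681 to 3023 with 1 library left out. None of the 26 named genes called in the difference changed sign under the 21 alternatives run. Their selection by that difference in the same data largely set this outcome. Of these 26, 22 stayed called with no sex term, 23 with sex as labelled, 26 with DESeq2, 6 with only the 12 libraries, 2 without library 8 and 8 without library 23. The causes were not tested. No paired analysis was possible because the labels give each library a number of its own. Low read numbers limit Dsp, Ckmt1, Fgfbp1, Myt1l and Trim9 in D2 WT.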
